A study of Arabidopsis thaliana with 30 samples.

Results

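Cells in which a reporter of the SHP2 promoter was active were compared with reporter-negative cells from the same kind of inflorescence of Arabidopsis thaliana. SHP2 (SHATTERPROOF2) encodes a MADS-domain transcription factor expressed in the medial domain of the young gynoecium, the organ that becomes the fruit. The comparison uses 7 of the 15 libraries of the series, chosen by their group labels: replicates 1 to 3 of the reporter-positive group (YFP-POS) and replicates 1 to 4 of the reporter-negative group (YFP-NEG). Every library was run in 2 lanes, so these are 14 of 30 samples. All plants of all groups, the controls included, carried pSHP2-GAL4, which drives the yeast activator GAL4, and pUAS-3xYpet, a GAL4-responsive triple yellow fluorescent protein (YFP). They also shared the ap1 and cal mutations and pAP1-AP1::GR, a fusion of AP1 to the glucocorticoid receptor. YFP-POS and YFP-NEG cells were protoplasts, which are cells freed of their walls by digestion, separated by fluorescence-activated sorting. A further 4 libraries hold sorted protoplasts taken without regard to YFP (ALL-SORT) and 4 hold inflorescences frozen whole (NO-SORT), and both are used here only for levels. Any cell of the inflorescence without the reporter can be in YFP-NEG, so the comparison sets 1 domain against a mixture of organs and cell types. In such bulk samples, fewer cells of a type and less RNA of a gene per cell cannot be told apart. The steroid treatment and the floral stage are not given in the sources used here, and the labels call the replicates biological without saying whether they came from separate plants, so p-values measure the spread between these libraries.

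The medial domain of the gynoecium keeps meristem activity after the other floral organs have been laid down and forms the carpel margin meristem, from which placenta, ovules, septum, style and stigma arise. Auxin made by TAA1 and YUCCA enzymes and moved by PIN carriers, cytokinin response, and homeobox genes of the KNOX and BELL families are all known to shape it. Auxin acts by bringing the repressor proteins of the Aux/IAA family to TIR1/AFB receptors for breakdown, which frees the auxin response factors (ARFs). Cytokinin acts through histidine kinase receptors, phosphotransfer proteins and type-B response regulators, which switch on the type-A regulators that damp the signal.

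The markers of the sort went with the labels. SHP2 stood at 40.7, 37.3 and 34.9 CPM (counts scaled to library size and shown per 1000000) in YFP-POS replicates 1 to 3 and at 1.16, 2.21, 1.51 and 2.44 CPM in YFP-NEG replicates 1 to 4. HEC1, a basic helix-loop-helix factor of the medial domain, reached 36.9 to 59 CPM against 0.581 to 1.03, and CRC, a YABBY factor of the gynoecium, 235 to 353 CPM against 12.1 to 22.7. The groups did not overlap for any of these markers. In the order used throughout, values in several libraries are CPM in order of replicate number, and log2 fold changes (log2FC) are YFP-POS over YFP-NEG with their SE.

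Of 18830 genes with enough counts to be tested, 9184 (48.8%) were called at an adjusted p under 0.05 by edgeR's quasi-likelihood F test. Of these, 4592 (24.4%) were higher in YFP-POS and 4592 (24.4%) were lower. So about every other gene was called, and a list is read here against these shares and against the median log2FC of -0.015 over all genes tested. The groups' CPM ranges did not overlap in 51.1% of the genes tested, in 26.7% with YFP-POS above and in 24.5% with it below. A stricter rule, an adjusted p under 0.001 with a change of at least 4-fold, took 729 genes (3.87%), of which 170 were higher and 559 lower. The members of the lists below were written from general knowledge of each pathway, with earlier results of these data known: 258 hormone genes, 102 genes of meristem and organ patterning, 93 of the cell cycle and 189 of metabolism. The shares called per list are shown in the chart of calls.

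**Figure D1:**
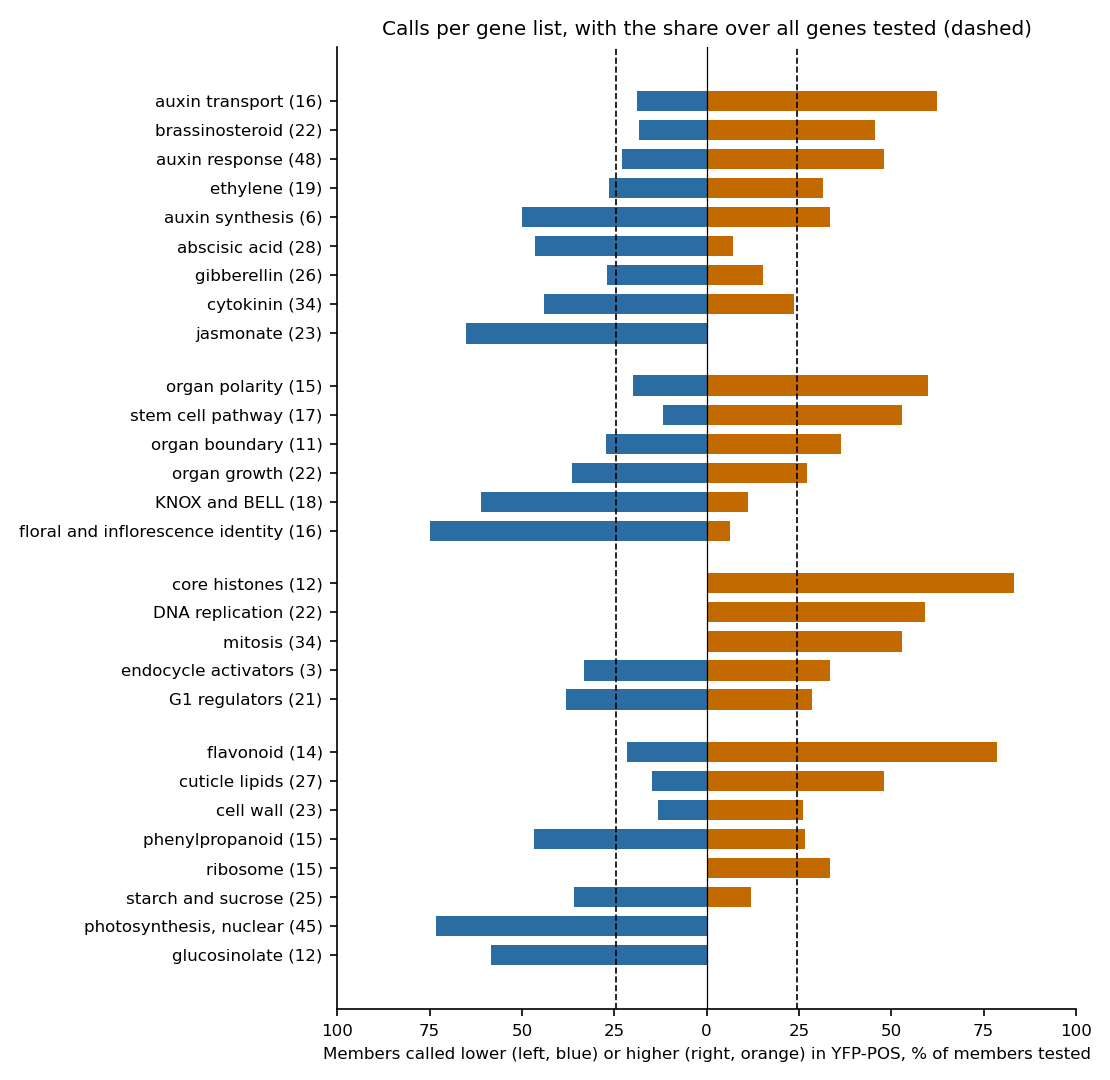
For each gene list, the horizontal bars give the percentage of its tested members (number in brackets) that were called higher in YFP-POS (orange, to the right) or lower (blue, to the left), and the dashed lines mark the 24.4% of all tested genes called in each direction. Core histones, flavonoid and auxin transport genes reach farthest beyond the line on the right, while floral and inflorescence identity, photosynthesis and jasmonate genes do so on the left.

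Depth was 13969774 to 19011084 counts per library in YFP-POS and 13422821 to 15774591 in YFP-NEG. Across genes, log2 CPM correlated at r = 0.975 to 0.981 within YFP-POS, 0.982 to 0.985 within YFP-NEG and 0.896 to 0.929 between the groups. YFP-POS replicate 3 stood apart from the other 2: it had the highest level of the 3 in 410 of the 559 strictly lower genes (73.3%) and the lowest in 92 of the 170 strictly higher ones (54.1%). The summed level of those 559 genes was 2283, 2781 and 4178 CPM in YFP-POS replicates 1, 2 and 3 and 16170 to 18170 CPM in YFP-NEG. Without replicate 3 the strict counts were 161 higher and 721 lower, and without replicate 2 they were 125 and 385. Beside a count below, a library is named where leaving it out moved that count by over 1.5 times.

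Markers of other cell types moved between the groups as well. All 8 epidermis markers were higher in YFP-POS, with a summed level of 2488 to 3165 CPM against 977 to 1181. Their sum in NO-SORT was 2714 to 4042 CPM, so YFP-POS was near the level of whole inflorescences and YFP-NEG below it. ATML1, the homeodomain factor that specifies the outer cell layer, stood at 142, 152 and 205 CPM in YFP-POS and 51, 58.9, 64.8 and 55.2 in YFP-NEG. Of 10 tested vascular markers 5 were lower and 1, SMXL5, was higher (219 to 315 against 248 to 346 CPM in sum, with at most 2 of 12 members at 0 in a library). Of 9 stomatal lineage markers 4 were lower (19.9 to 43.7 against 48.9 to 63.2 CPM), a count that was 2 without YFP-NEG replicate 1 or without YFP-NEG replicate 4. The B-class genes AP3 and PI, which specify petals and stamens, were lower (94.2 to 144 against 375 to 436 CPM). Of 10 tested anther and tapetum markers 6 were lower and 2 higher. Up to 6 of the 14 members were at 0 in a YFP-POS library. Their summed level was 244 to 266 against 140.5 to 196 CPM, of which EMS1, a receptor kinase and 1 of the 2 higher members, made up 175 to 201 against 46.5 to 55.3. Meiotic markers had 1 higher and 2 lower of 11 (114 to 134 against 101 to 132 CPM). The higher count was 2 with the replicate block, which added DMC1, and the lower count was 1 without YFP-NEG replicate 4 or YFP-POS replicate 2. Of 15 genes known to respond to wounding, touch and heat during protoplast handling, 14 were lower in YFP-POS and none was higher: their summed level was 3546 to 5695 CPM in YFP-POS, 8750 to 11690 in YFP-NEG and 41 to 171 in NO-SORT, where up to 2 were at 0. ALL-SORT replicate 4 stood apart from its group: its handling genes summed to 2014 CPM against 7449 to 10570 in the other 3 ALL-SORT libraries, and its epidermis markers to 3427 against 1415 to 1771. The ALL-SORT means in the plots of levels include it. ALL-SORT and NO-SORT values come from a second deposited table and were scaled together with the others here, so levels set across the tables are descriptions. The part that these cell types and handling genes had in the results below was not tested.

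The libraries were strand-specific, but whether strand was used in counting is not given in the sources used here, so the values of genes whose span overlaps an annotated neighbour are uncertain. Among the genes named below these are 4CL1, ABCG11, ADG2, AFB1, AGAL2, AHP3, AIL6, APL4, ARF19, ARR6, ARR8, ARR9, BAM2, BDG1, BOP2, BRL3, BZR1, CDKB2;1, CESA3, CESA8, CKX1, CRC, CRN, CSI1, CYCD3;1, CYCD3;2, CYCD6;1, DEL1, DOF4.7, E2F3, EBF2, F3H, FIB1, FIB2, FZR3, GRF1, HDG2, HTA13, IAA32, JAZ10, KAO1, KN, MCM7, MYB11, MYC2, NUC-L1, RBR1, RNR2A, ROT3, RPS13A, SHP1, SHP2, SIM, SNRK2.3, SS2, TSO2 and TT4.

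Auxin synthesis genes were divided, with TAA1 and YUC4 higher in YFP-POS and YUC2, YUC6 and TAR2 lower. TAA1, the aminotransferase that makes indole-3-pyruvate from tryptophan, stood at 271, 269.8 and 218 CPM in YFP-POS and 30.8, 35.8, 35 and 40.9 CPM in YFP-NEG (log2FC 2.8 ± 0.14, adjusted p = 2.8e-07). YUC4, a flavin monooxygenase that completes the synthesis, stood at 28.1, 39.1 and 24.2 against 5.04, 8.7, 4.97 and 6.15 CPM (log2FC 2.27 ± 0.23, adjusted p = 1.4e-05). Each YFP-POS library lay above every YFP-NEG library for both genes. Other enzymes of the same steps were lower: YUC2 stood at 1.84 to 2.5 against 5.26 to 9.06 CPM (log2FC -1.66 ± 0.29) and YUC6 at 3.76 to 5.81 against 6.93 to 9.94 (log2FC -0.91 ± 0.24). TAR2 (log2FC -0.48 ± 0.14) was not called without YFP-NEG replicate 1 or YFP-POS replicate 1. YUC1 was not called (13.7 to 14.1 against 9.37 to 12.5 CPM), and the other 8 of 14 members were too low to test. The summed level of the list was 293 to 350.4 CPM in YFP-POS and 98.8 to 107 in YFP-NEG, and TAA1 was the largest part of it in every YFP-POS library.

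Of 16 tested auxin transport genes 10 (62.5%) were higher and 3 lower, with a median log2FC of 0.93. LAX1, an influx carrier, stood at 222, 335 and 188 CPM in YFP-POS against 22, 29.3, 21.7 and 26.1 in YFP-NEG (log2FC 3.3 ± 0.20, adjusted p = 7.4e-07). The efflux carrier PIN7 stood at 69.9, 103 and 86 against 19.3, 26.4, 25.8 and 29.7 CPM (log2FC 1.74 ± 0.17). Among the AGC kinases that phosphorylate PIN proteins, PID was at 203 to 267 against 87.2 to 101 CPM and WAG1 at 5.06 to 8.32 against 0.442 to 1.55. WAG2, the third of these kinases, was low in YFP-NEG, at 25.5, 35.8 and 21.3 CPM against 0.323, 1.4, 0.818 and 0.444 (log2FC 5.18 ± 0.35, adjusted p = 1.4e-06), which placed it among the 15 largest increases of all genes that met the rule for named genes. PIN3, AUX1, LAX2 and ABCB19 were higher by log2FC of 0.87 to 1.01. The exceptions were 3 carriers that were lower: PIN5, a carrier of the endoplasmic reticulum (0.489 to 4.27 against 4.97 to 22.8 CPM), PIN6 (20.06 to 24.9 against 25.7 to 34.2) and PIN8 (0 to 0.247 against 0.516 to 2.33). The groups did not overlap for any of the 3, but for PIN5 they came close, between YFP-POS replicate 3 at 4.27 CPM and YFP-NEG replicate 1 at 4.97.

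The response machinery of auxin split by role. Of 5 TIR1/AFB receptors 4 were higher and none lower: AFB5 (log2FC 1.14 ± 0.13), TIR1 (log2FC 0.92 ± 0.14), AFB2 and AFB1. Of 13 ARFs 11 were higher and none lower (ARF19 was lower with the replicate block, log2FC -0.40, adjusted p = 0.0338, and without YFP-POS replicate 3), with a median log2FC of 0.73 and values up to 1.61 ± 0.14 for ETT, the ARF that patterns the gynoecium along its length, and 1.5 ± 0.14 for ARF8. ETT stood at 149, 201 and 160.1 CPM in YFP-POS and 49.4, 59, 48.9 and 61.1 in YFP-NEG. By contrast 9 of 24 tested Aux/IAA repressors were lower and 5 higher. IAA1 fell to 1.58, 2.48 and 3.28 CPM from 17.2, 14.7, 17.9 and 14.1 in YFP-NEG (log2FC -2.74 ± 0.25) and IAA28 to 1.25, 1.2 and 2.66 from 8.52, 12.5, 13.7 and 9.26 (log2FC -2.7 ± 0.33). In the other direction IAA32, which lacks the degron that auxin receptors bind, stood at 16.3, 17.6 and 10.9 CPM against 1.03, 0.885, 1.01 and 2.07 (log2FC 3.55 ± 0.32), without overlap. Over the whole list of 48 tested response genes 23 were higher and 11 lower.

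The GH3 enzymes, which join free auxin to amino acids and are among the fastest auxin-induced genes, were also divided. GH3.2 stood at 369.8, 489 and 284 CPM in YFP-POS against 52.2, 57.3, 47.5 and 56.4 in YFP-NEG (log2FC 2.81 ± 0.18, adjusted p = 8.7e-07). GH3.3 stood at 580, 837 and 532 against 98.7, 123, 99.1 and 103 CPM (log2FC 2.59 ± 0.17). GH3.1 reached 7.67 to 11.3 CPM against 0.44 to 1.84, a rise of similar size at a low level. Both GH3.6 (log2FC -1.71 ± 0.18) and GH3.17 (log2FC -1.98 ± 0.38) were lower, and GH3.5 was not called. Among the 250 bases before the start of 27437 nuclear protein-coding genes, 10.9% held the auxin response element TGTCTC on either strand, as did 10.6% of the genes tested and 10.5% of those called higher. It was in 14 of 52 auxin response members (26.9%) and at a similar share in those called higher, 6 of 23 (26.1%). Of 6 GH3 members 3 held it, GH3.2, GH3.3 and the uncalled GH3.5. The upstream sequences of the 2 GH3 genes with the highest levels among those that rose are shown because they carry the element, which is in capitals. They are from RefSeq TAIR10.1, 5′ to 3′ on the strand of the gene and ending at the base before its start: GH3.2 at chr4:17579368-17579617 (forward strand) and GH3.3 at chr2:9866563-9866812 (reverse strand). In GH3.2 the element lies 144 to 139 bases before the start and in GH3.3 116 to 111, and a match is a description, not evidence of binding.
GH3.2: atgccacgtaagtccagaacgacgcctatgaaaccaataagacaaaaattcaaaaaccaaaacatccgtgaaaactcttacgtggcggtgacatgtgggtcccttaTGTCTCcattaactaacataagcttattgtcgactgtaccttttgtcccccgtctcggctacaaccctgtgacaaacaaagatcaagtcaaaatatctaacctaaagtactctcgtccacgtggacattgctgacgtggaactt
GH3.3: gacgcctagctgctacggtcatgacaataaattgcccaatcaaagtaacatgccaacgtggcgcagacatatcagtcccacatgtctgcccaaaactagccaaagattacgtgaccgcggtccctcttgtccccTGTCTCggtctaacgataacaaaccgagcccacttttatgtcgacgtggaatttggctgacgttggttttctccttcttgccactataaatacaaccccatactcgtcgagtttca

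Cytokinin genes went the other way at the response step. Of 8 tested type-A response regulators 5 were lower and 2 higher, with a median log2FC of -1.42. ARR5 stood at 1.85, 1.76 and 3.34 CPM in YFP-POS against 17.43, 13.1, 14.7 and 8.59 in YFP-NEG (log2FC -2.56 ± 0.31, adjusted p = 5.2e-05). ARR4, ARR8 and ARR9 were lower by log2FC of -1.34 to -2.03 and ARR6, at most 1.7 CPM in any of these libraries, was lower as well. The 2 that rose were ARR7 (24.2 to 28.8 against 17.2 to 20.5 CPM, log2FC 0.47 ± 0.14) and ARR15 (7.11 to 14.3 against 3.11 to 5.62 CPM, log2FC 1.24 ± 0.30). The inhibitory phosphotransfer protein AHP6 was at 1.28 to 2.07 CPM against 7.42 to 9.36 (log2FC -2.36 ± 0.28). No receptor or phosphotransfer gene was higher and 5 of 8 were lower. The receptor WOL and the phosphotransfer protein AHP3 were not called (log2FC -0.49 ± 0.20 and -0.33 ± 0.16) but were lower with the replicate block (log2FC -0.58, adjusted p = 0.00384, and log2FC -0.43, adjusted p = 0.0296) and with upper-quartile scaling. WOL was also lower with library totals, by DESeq2 and without YFP-NEG replicate 2 or YFP-POS replicate 1.

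At the level of cytokinin supply the picture was mixed. LOG1, one of the enzymes that release the active base, was lower (3.86, 6.72 and 10.4 CPM against 29.2, 36.2, 31.6 and 28.5, log2FC -2.2 ± 0.26). Its relatives LOG3 (25 to 31.1 against 10.03 to 10.9 CPM) and LOG8 (67.8 to 92.4 against 36.4 to 46.6) were higher. Among the oxidases that degrade cytokinin, CKX7 was higher (97.4, 132 and 93.7 against 37.8, 40.5, 39.9 and 31.2 CPM, log2FC 1.5 ± 0.15) and so was CKX3, while CKX1 was lower (0.598 to 2.6 against 4.58 to 9.4 CPM). Over the list, 8 of 34 tested members were higher, close to the background share of 24.4%, and 15 were lower (44.1%).

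Among gibberellin genes, GA20OX1, GA20OX2 and GA3OX3 of synthesis were lower and KAO1, which acts earlier, was higher, while the receptor GID1B and the DELLA genes RGL2 and GAI were higher. GA20OX1, which catalyses a late and limiting step of gibberellin synthesis, stood at 0, 0.64 and 1.11 CPM in YFP-POS against 5.17, 6.63, 9.56 and 8.88 (log2FC -3.75 ± 0.63) and GA20OX2 at 1.03 to 2.0 against 5.82 to 8.29 (log2FC -2.19 ± 0.31). The receptor gene GID1B was 61.9 to 67.7 against 20.4 to 21.8 CPM (log2FC 1.6 ± 0.11, adjusted p = 1.5e-06) and its relative GID1A lower (log2FC -0.76 ± 0.11). RGL2, a DELLA repressor of gibberellin response, stood at 112, 118 and 83.2 CPM against 16.7, 23.6, 13.7 and 22.7 (log2FC 2.42 ± 0.20), and GAI, another, was higher by 1.21 ± 0.16. All 3 GASA genes, small peptide genes that gibberellin regulates, were lower, GASA1 from 18.9 to 58 CPM to 2.45 to 6.16. Across the 26 tested members 4 were higher (15.4%), below the 24.4% of all genes tested. The 7 lower ones (26.9%) were close to the 24.4% of all genes that were lower. None of 5 inactivating GA2OX enzymes was called.

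Of 22 tested brassinosteroid genes 10 were higher and 4 lower. The receptor BRI1 was at 168 to 236 CPM against 78 to 92.3 (log2FC 1.14 ± 0.14), BRL1 at 7.99, 11.2 and 11.5 against 1.55, 1.62, 1.45 and 1.41 (log2FC 2.73 ± 0.26) and BRL3 at 57.7 to 61.8 against 9.04 to 18.2 (log2FC 2.07 ± 0.21). BZR1, a transcription factor at the end of the pathway, was higher by 1.06 ± 0.14. In synthesis ROT3 was higher (log2FC 1.45 ± 0.24), while DWF4, which catalyses a rate-limiting hydroxylation, was lower (6.04, 6.0 and 13.6 against 20.6, 21.2, 20.6 and 19.7 CPM, log2FC -1.29 ± 0.26), so the enzymes of this pathway were split 3 to 3. For ethylene, 6 of 11 receptor and signalling genes were higher and 1 lower, while 4 of 8 synthesis genes were lower and none higher. ACS6, an ACC synthase gene, stood at 439.7, 537 and 623 CPM in YFP-POS and 1236, 1391, 1406 and 1200 in YFP-NEG, against a mean of 16.1 in NO-SORT. ACO4, an ACC oxidase, was at 10.9 to 23.9 CPM against 35.2 to 56.2 (log2FC -1.5 ± 0.24). ETR2, a receptor, was at 11.5 to 20.8 against 4.22 to 8.04 (log2FC 1.35 ± 0.26), and EBF2, an F-box protein that removes EIN3, rose by 1.09 ± 0.20.

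Jasmonate and abscisic acid genes were lower as groups in YFP-POS than in YFP-NEG. Of 23 tested jasmonate genes 15 (65.2%) were lower and none was higher. With the replicate block 19 were lower, LOX3, LOX4, AOS and JAZ10 being added (LOX4, AOS and JAZ10 were also lower without YFP-NEG replicate 1, and LOX3, LOX4 and JAZ10 without YFP-POS replicate 3), and OPR3, a synthesis enzyme, was called higher (log2FC 0.32). At an adjusted p under 0.01, 8 were lower. The repressor gene JAZ8 stood at 3.26, 8.32 and 10.4 CPM in YFP-POS and 19, 30.2, 24.7 and 25.8 in YFP-NEG, and JAZ1 at 238, 263 and 382 against 769.6, 903, 1068 and 902. MYC2, the transcription factor that JAZ proteins repress, was not called (808 to 1238 against 869.8 to 1219 CPM). Levels in NO-SORT were lower than in both YFP groups, with a mean of 0.256 CPM for JAZ8, 25.5 for JAZ1 and 68.6 for MYC2. The summed level of the list was 1233 to 1418 CPM in NO-SORT, 2334 to 4251 in YFP-POS and 4056 to 6224 in YFP-NEG. The part of handling in these differences was not tested. Of 28 tested abscisic acid genes 13 were lower and 2 higher. The summed level of this list was 965 to 1133 CPM in YFP-POS, 1375 to 1559 in YFP-NEG and 1025 to 1108 in NO-SORT. YFP-POS was thus near the level of whole inflorescences and YFP-NEG above it, and the part of handling was not tested here either. SNRK2.3, a kinase of the core pathway, was at 87.2, 87.1 and 104 CPM against 233, 209, 206 and 195 (log2FC -1.21 ± 0.13) and CYP707A3, which inactivates the hormone, at 46.9 to 81.2 against 129.8 to 182, with a NO-SORT mean of 1.24. ABI5, a bZIP factor best known from seeds, was higher (56.9, 48.8 and 72.7 against 32, 28.5, 35.7 and 26.5 CPM, log2FC 0.93 ± 0.16), as was the synthesis gene NCED2, a call lost without YFP-POS replicate 2.

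**Figure D2:**
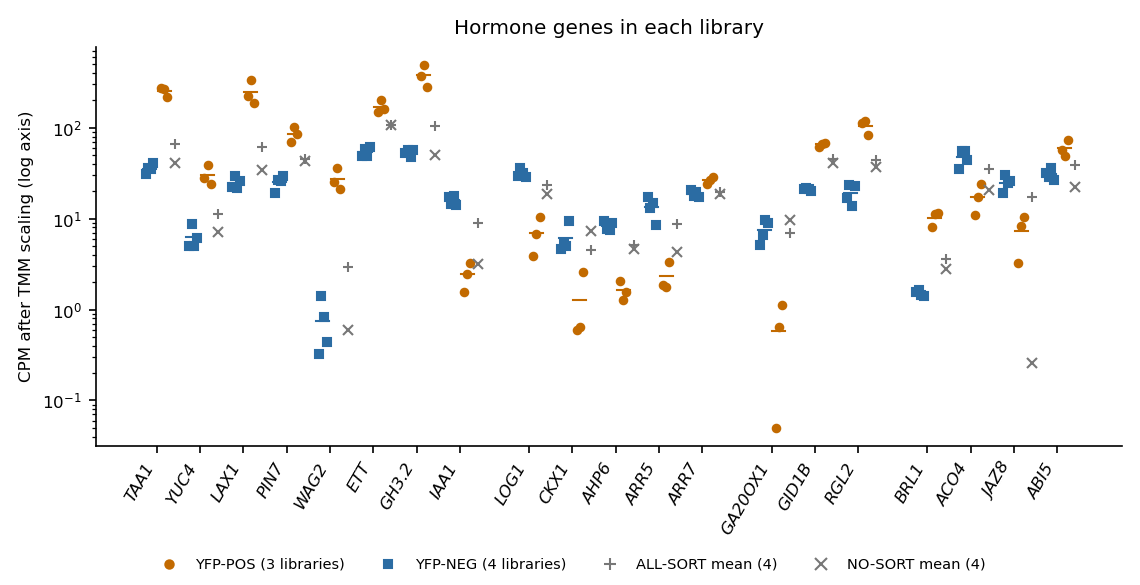
Levels of 20 hormone genes in CPM after TMM scaling, on a log axis, with 1 orange circle per YFP-POS library, 1 blue square per YFP-NEG library, horizontal bars for the group means, and grey signs for the means of ALL-SORT (plus) and NO-SORT (cross). The auxin genes on the left, from TAA1 to GH3.2, have all YFP-POS libraries above all YFP-NEG libraries, IAA1 and most cytokinin genes the reverse, and JAZ8 lies lowest in NO-SORT. A value of 0 (GA20OX1 in YFP-POS replicate 1) is drawn at 0.05 CPM.

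Homeobox genes of the shoot meristem were mostly lower in YFP-POS. Of 18 KNOX and BELL genes 11 (61.1%) were lower and 2 higher, with a median log2FC of -1.22. STM, which keeps meristem cells undifferentiated, was not called: it stood at 69.9, 88.3 and 75.1 CPM in YFP-POS and 64.8, 86.2, 89.1 and 78.9 in YFP-NEG (log2FC -0.06 ± 0.14, adjusted p = 0.73). Its relatives KNAT1 (BREVIPEDICELLUS) and KNAT6 were lower, at 17.6, 17.9 and 39.1 against 70.5, 75.3, 90.2 and 71.8 CPM and 9.57, 8.16 and 13.1 against 36.5, 33.8, 46.4 and 43.5. For both, YFP-POS replicate 3 was the highest YFP-POS library and still below every YFP-NEG library. Among BELL partners of these proteins, BLR (REPLUMLESS) was higher at 80.8, 85 and 98.6 CPM against 37.2, 44.1, 41.8 and 40.2 (log2FC 1.08 ± 0.12). ATH1 (log2FC -1.83 ± 0.25) and BLH4 (log2FC -2.01 ± 0.20, 3.32 to 4.16 against 12.6 to 17 CPM) were lower, so the second called increase in this family besides BLR was KNAT5 (log2FC 0.48 ± 0.12).

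In the pathway that sizes the stem cell pool, 9 of 17 tested members were higher and 2 lower. WUS, the homeodomain factor of the organizing centre, was low and not called (1.36, 1.84 and 2.97 CPM against 1.29, 1.4, 2.01 and 1.7). CLV1, the receptor kinase that restricts it, was lower (17.1, 23 and 32.7 against 42.1, 54.5, 45.6 and 54.2 CPM, log2FC -1.04 ± 0.20). Related receptor kinases were higher: BAM1 stood at 293 to 371 CPM against 127 to 157, BAM2 at 187 to 239.9 against 64.4 to 96.2 and RPK2 at 79 to 153 against 36.1 to 44.9. ERL2, a receptor of the ERECTA family, was at 339.9, 293 and 328 CPM against 131, 102, 110.8 and 114 (log2FC 1.46 ± 0.13, adjusted p = 5.8e-06), while ER itself was not called (401 to 580.2 against 509.5 to 566 CPM). KNU, a zinc finger gene that ends WUS activity in flowers, was the other lower member, at 0 in 2 YFP-POS libraries and 1.11 to 2.44 CPM in YFP-NEG. With the replicate block CRN (log2FC -0.38, adjusted p = 0.0399) and BAM3 (log2FC -0.42, adjusted p = 0.0122), which work beside CLV1, were lower too, which made 4 lower. BAM3 was also called lower with upper-quartile scaling, with library totals, by DESeq2, by limma-voom and without YFP-POS replicate 3.

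Genes of floral and inflorescence identity formed the list with the largest share of lower members among the meristem lists, 12 of 16, with 1 higher and a median log2FC of -1.63. TFL1, which keeps the inflorescence meristem from turning floral, stood at 2.88, 2.24 and 7.36 CPM against 23.1, 24.9, 63.1 and 27.4 (log2FC -3.07 ± 0.45). SVP and AGL24, MADS-domain factors of early floral meristems, were at 3.04, 2.56 and 4.02 against 15.6, 17, 19.1 and 17.6 CPM (log2FC -2.46 ± 0.21) and 6.96, 7.92 and 10.9 against 42.3, 35.6, 41.5 and 38.3 (log2FC -2.22 ± 0.17). No YFP-POS library reached a YFP-NEG library for these genes. AG, which specifies stamens and carpels, was the member that rose (81.3, 85.8 and 93.1 against 53.7, 46.5, 49.8 and 60.9 CPM, log2FC 0.69 ± 0.13), and its partner SEP3 was not called (161 to 182 against 184 to 198 CPM) except with library totals (log2FC -0.29, adjusted p = 0.0463). The 2 mutated genes of the background, AP1 and CAL, are among the 12 lower members and were read in both groups. AP1 counts, which cannot separate the ap1 allele from the AP1:GR transgene, gave 33.4, 33.4 and 59.9 CPM against 189, 175, 170.3 and 157, and CAL 1.25, 1.28 and 1.11 against 9.43, 8.33, 11.7 and 7.03.

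Of 11 tested organ boundary genes 4 were higher (36.4%) and 3 lower (27.3%), against 24.4% of all genes tested in each direction. CUC2, a NAC factor that separates organs and is required for the carpel margin, stood at 43.6, 44.8 and 31.7 CPM against 8.52, 12.8, 7.86 and 7.78 (log2FC 2.09 ± 0.20, adjusted p = 1.0e-05), CUC1 was higher by 1.32 ± 0.18, and CUC3 was not called. PTL (PETAL LOSS), a trihelix factor, was at 27.4 to 31 CPM against 8.55 to 11.9, and LAS, a GRAS factor, at 6.0 to 8.64 against 0.518 to 2.26. BOP2, a co-activator at the base of lateral organs, was lower (2.94, 7.76 and 10.9 against 17, 22.8, 19.6 and 18.4 CPM, log2FC -1.47 ± 0.32).

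Of 15 tested polarity genes 9 were higher, 6 of 7 on the adaxial side and 3 of 8 on the abaxial side, and 3 were lower. PHV, a class III homeodomain factor of the adaxial side, had the largest log2FC of these, at 154, 149.9 and 190 CPM against 64.6, 68.6, 65.5 and 66 (log2FC 1.29 ± 0.12). The other increases were small, up to 0.86 ± 0.24 for AS2, and the count of higher members was 5 with upper-quartile scaling, with library totals, without YFP-NEG replicate 1 and without YFP-POS replicate 3. ATHB-8, the class III factor of the vascular procambium, was lower (log2FC -1.41 ± 0.20). YAB3, an abaxial YABBY factor, was lower at 23.5 to 39 CPM against 32.5 to 51.3 with overlapping libraries, and was not called with the replicate block (log2FC -0.47, adjusted p = 0.0685) or without any 1 of YFP-NEG replicates 1, 2 and 4 or YFP-POS replicates 1 and 2. Among growth genes, GRF1 was 107, 125.1 and 119.6 CPM in YFP-POS and 23.9, 21.5, 21.2 and 24.1 in YFP-NEG (log2FC 2.34 ± 0.12, adjusted p = 2.8e-07). Over the 14 growth-regulating (GRF), AP2-type and related factors tested, 6 were higher and 4 lower. GRF8 and the AP2-type factors ANT and AIL5 were among the higher ones, ANT at 418 to 465 against 216 to 253 CPM. GRF4 (log2FC -0.8 ± 0.19), GRF5 (log2FC -0.54 ± 0.12), AIL6 (log2FC -0.74 ± 0.17) and AIL7 (log2FC -1.26 ± 0.24) of the same families were lower. Of 8 TCP genes of the CINCINNATA type, which end cell division in growing leaves, 4 were lower and none higher, TCP13 at 2.88, 1.84 and 3.34 CPM against 18.9, 17.9, 17.9 and 20.14 (log2FC -2.8 ± 0.22) and TCP10 at 17.44 to 23.4 against 62.1 to 73.1.

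**Figure D3:**
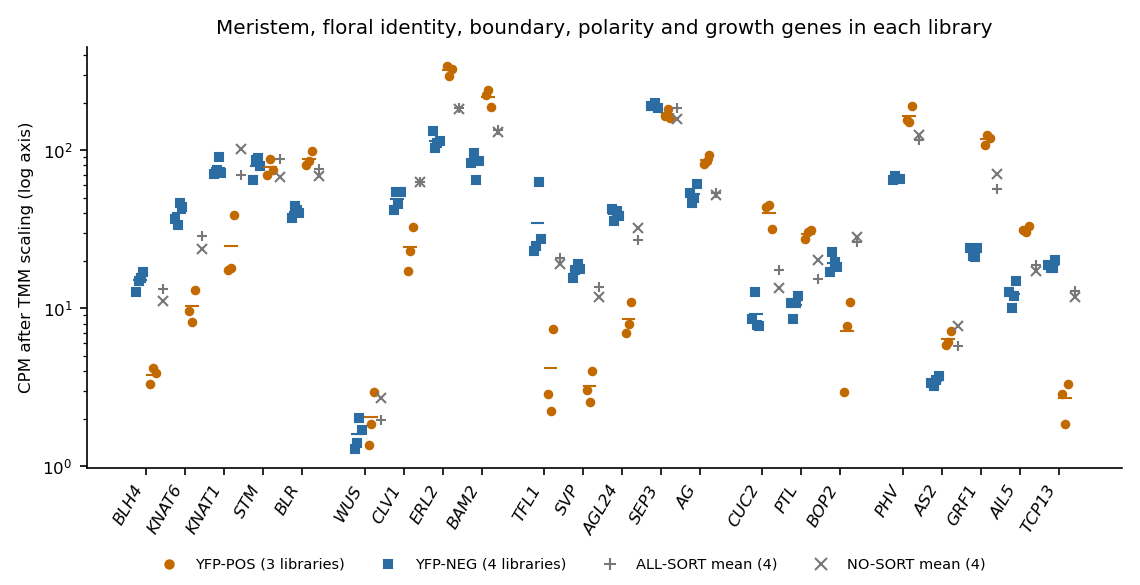
Levels of 22 genes of the meristem, of floral identity, organ boundaries, polarity and growth, in CPM after TMM scaling on a log axis (orange circles, YFP-POS libraries; blue squares, YFP-NEG libraries; bars, means; grey plus and cross, means of ALL-SORT and NO-SORT). The groups overlap for STM. KNAT6, KNAT1, TFL1, SVP and AGL24 lie lower in YFP-POS, and ERL2, BAM2, CUC2, PTL, PHV and GRF1 lie higher.

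The cell cycle lists were called mostly in one direction past the entry into S phase: of 92 tested members 48 were higher (52.2%) and 9 lower, and 8 of the 9 were regulators of G1. Of 22 DNA replication genes 13 (59.1%) were higher and none lower, with a median log2FC of 0.48. MCM4, a subunit of the helicase loaded at replication origins, stood at 151, 121.6 and 155 CPM in YFP-POS against 48.9, 51, 42 and 46.5 (log2FC 1.57 ± 0.13, adjusted p = 4.3e-06). MCM5 stood at 141, 128 and 150.1 against 62.6, 55.9, 56.8 and 68 CPM (log2FC 1.18 ± 0.12) and MCM7 at 142 to 153 against 60.1 to 66.8 (log2FC 1.16 ± 0.11), while MCM2 (114, 76.8 and 96.8 against 73, 57.6, 77 and 78.6 CPM, log2FC 0.4 ± 0.16) and MCM6 (72.9 to 124 against 57.1 to 81.9) of the same complex were not called. MCM2 lay close to the threshold (adjusted p = 0.0533) and was called higher with the replicate block (log2FC 0.44, adjusted p = 0.0120), without YFP-POS replicate 2 (log2FC 0.51, adjusted p = 0.0233), by DESeq2 (adjusted p = 0.0450) and with no filter (adjusted p = 0.0450). CDC45, which activates the helicase, was higher by 1.26 ± 0.17 and TSO2, a ribonucleotide reductase subunit, by 0.86 ± 0.16. RNR2A, another subunit, was called lower with the replicate block, with upper-quartile scaling or library totals, and without YFP-POS replicate 1.

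E2F factors switch on replication genes when the retinoblastoma protein RBR1 releases them. All 4 E2F and RBR genes in the list were higher. These were E2F3 (25 to 28.2 against 11.9 to 15.6 CPM, log2FC 0.93 ± 0.15), E2F1 (not called without YFP-POS replicate 3), RBR1 (142 to 219 against 97 to 112 CPM, log2FC 0.74 ± 0.15) and DEL1, an atypical E2F that represses. An E2F site (TTTCCCGC, TTTCGCGC, TTTGGCGC or TTTGCCGC on either strand) lay in the 250 bases before the start of 1.41% of all 27437 genes, 1.57% of the genes tested and 1.76% of those called higher. In the DNA replication list it was in 11 of 22, both among members called higher (5 of 13) and among those not called (6 of 9), in 1 of 12 core histone genes and in none of the 34 mitosis genes. The site is shown in 3 MCM genes, the called MCM4 and MCM5 and, close to the threshold, MCM2. The sequences are from RefSeq TAIR10.1, 5′ to 3′ on the strand of the gene, with the site in capitals: MCM4 at chr2:7130730-7130979 (reverse strand), MCM5 at chr2:3527501-3527750 (reverse strand) and MCM2 at chr1:16969964-16970213 (forward strand). In MCM4 the site is read on the opposite strand.
MCM4: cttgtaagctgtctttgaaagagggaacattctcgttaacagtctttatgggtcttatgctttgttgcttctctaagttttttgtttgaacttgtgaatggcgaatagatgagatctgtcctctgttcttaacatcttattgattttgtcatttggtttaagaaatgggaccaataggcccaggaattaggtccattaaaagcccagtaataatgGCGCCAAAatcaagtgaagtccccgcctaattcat
MCM5: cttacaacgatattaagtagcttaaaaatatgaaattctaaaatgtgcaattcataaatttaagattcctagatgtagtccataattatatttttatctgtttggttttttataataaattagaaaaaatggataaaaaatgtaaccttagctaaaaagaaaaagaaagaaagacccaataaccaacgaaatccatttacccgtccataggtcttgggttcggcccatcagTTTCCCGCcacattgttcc
MCM2: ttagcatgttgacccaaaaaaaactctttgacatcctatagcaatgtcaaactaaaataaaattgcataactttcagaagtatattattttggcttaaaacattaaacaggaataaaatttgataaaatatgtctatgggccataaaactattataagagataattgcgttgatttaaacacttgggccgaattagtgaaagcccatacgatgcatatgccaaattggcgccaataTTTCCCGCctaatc

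Core histone genes, whose transcripts accumulate in S phase, were higher in 10 of 12 cases (83.3%) and lower in none, with a median log2FC of 0.70. HTA13 stood at 581, 628 and 333 CPM against 282, 297, 253 and 281 (log2FC 0.86 ± 0.19) and RAT5 at 76 to 133 against 52.6 to 64.4. In each of the 12 genes YFP-POS replicate 3 was the lowest YFP-POS library. The groups did not overlap in 7 of the 12, each with YFP-POS above. Over all genes tested this held for 26.7%, and for 51.1% in either direction. The summed levels did overlap, at 3243 to 5332 CPM in YFP-POS and 2704 to 3257 in YFP-NEG. Histone genes are near-identical copies, so the counting may have split reads among them. Of 34 mitosis genes 18 (52.9%) were higher and none lower, with 10 higher at an adjusted p under 0.01. CDKB2;1, a plant kinase of the G2-to-M step, stood at 193, 225 and 175 CPM against 81.9, 70.5, 86 and 77.9 (log2FC 1.29 ± 0.13, adjusted p = 1.3e-05). CDC20.1, an activator of the anaphase-promoting complex, was at 236 to 241 against 102 to 124.7 (log2FC 1.0 ± 0.12), and the cyclin CYCB1;4 at 88.3 to 118 against 54.6 to 62.6. KN (KNOLLE), the syntaxin of the cell plate, overlapped between the groups (349.8, 188 and 252 CPM against 295, 200.1, 187 and 239) and was not called. Without YFP-POS replicate 1 a mitosis gene, the kinesin HIK, was called lower (log2FC -0.55, adjusted p = 0.0259). Most of these changes were under 2-fold: 4 of the 13 replication genes, none of the histones and 2 of the 18 mitosis genes that rose exceeded it.

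G1 regulators did not follow this direction, with 6 of 21 tested higher (28.6%) and 8 lower (38.1%). The share over all genes tested was 24.4% in each direction, and the lower count was 5 without YFP-NEG replicate 1. Of the D-type cyclins, which couple growth signals to division, CYCD3;3 was higher (log2FC 0.47 ± 0.16), a call lost with upper-quartile scaling, with library totals and without any 1 of YFP-NEG replicates 2, 3 and 4 or YFP-POS replicates 1 and 2. CYCD6;1 (1.74 to 3.77 against 6.78 to 9.88 CPM, log2FC -1.65 ± 0.30) and CYCD3;1 were lower, and the abundant CYCD3;2 was not called. Of 8 CDK inhibitors 5 were lower, among them KRP2 (13.7, 13.6 and 23.9 against 25.2, 29.3, 30.7 and 29.8 CPM, log2FC -0.78 ± 0.20) and KRP6 (5.84 to 7.18 against 10.3 to 17.9), and SIM, which promotes endoreduplication in trichomes, was higher (6.62 to 8.4 against 1.81 to 4.29, log2FC 1.24 ± 0.30). Of the 3 FZR activators of the anaphase-promoting complex, FZR3 rose (195 to 212 against 116 to 138 CPM). FZR2, an activator of the endocycle, was lower (log2FC -0.54 ± 0.21, adjusted p = 0.0477), a call that was absent with the replicate block (adjusted p = 0.0588), by limma-voom, with no filter and without any 1 of YFP-NEG replicates 1, 3 and 4 or YFP-POS replicates 1 and 2.

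**Figure D4:**
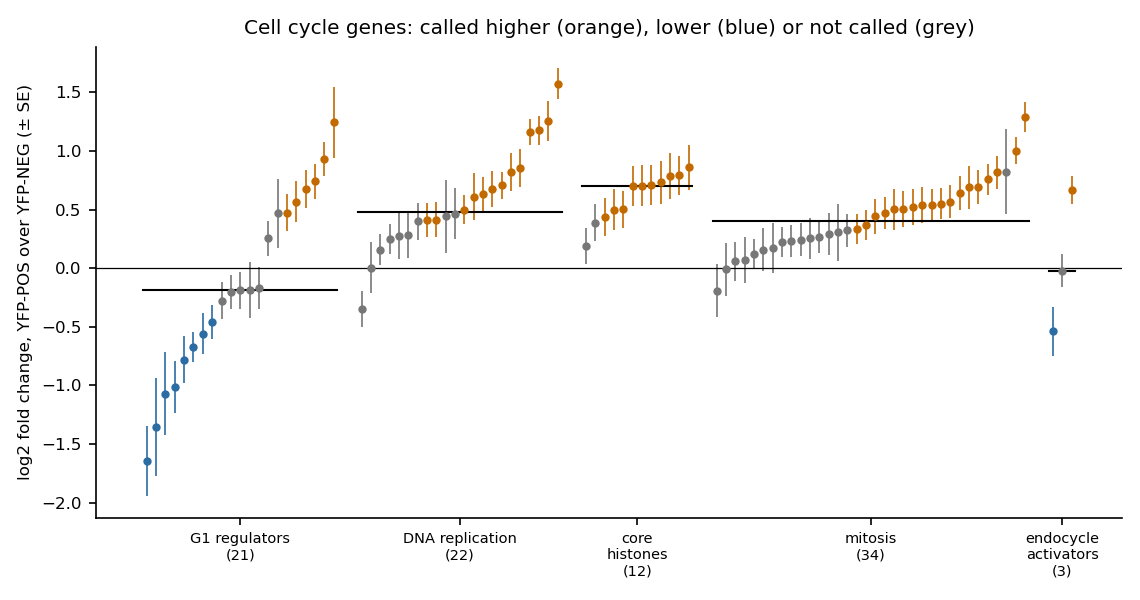
Each point is 1 tested gene of the cell cycle lists, ordered within its list, with its log2 fold change of YFP-POS over YFP-NEG on the vertical axis, error bars of 1 SE and the list's median as a black line. Replication, histone and mitosis genes lie mostly above 0, with no gene called lower (blue), while G1 regulators are spread from -1.65 for CYCD6;1 to 1.24 for SIM.

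Of the 15 tested ribosome genes 5 were higher (33.3%, against 24.4% of all genes tested) and none lower. The 3 nucleolar factors were all higher, FIB1 at 424, 518 and 382 CPM against 219, 244, 202 and 212 (log2FC 0.98 ± 0.14), FIB2, and NUC-L1 (log2FC 0.89 ± 0.13), which modify and process ribosomal RNA. Of 12 ribosomal protein genes 2 were higher, RPS13A (log2FC 0.79 ± 0.15) and RPS6B (not called without YFP-POS replicate 2), and 10 were not called.

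Nuclear photosynthesis genes were lower in YFP-POS in 33 of 45 cases (73.3%) and higher in none, with a median log2FC of -0.70. The summed level was 12710 to 15420 CPM in YFP-POS and 17920 to 24500 in YFP-NEG. RBCS2B, a small subunit of the carbon-fixing enzyme Rubisco, stood at 25, 36.9 and 75.1 CPM against 129.5, 182, 123 and 209 (log2FC -1.85 ± 0.32), whereas RBCS1A, the most abundant subunit gene, was not called (1459, 1791 and 1789 against 2149, 2427, 1729 and 2614 CPM, log2FC -0.44 ± 0.17), although it was lower by DESeq2 (adjusted p = 0.0117), by limma-voom, with upper-quartile scaling or library totals, and without YFP-NEG replicate 3 (log2FC -0.55) or YFP-POS replicate 3 (log2FC -0.47). PSBO2, of the oxygen-evolving complex, was at 61.5 to 69.2 against 162 to 245 (log2FC -1.72 ± 0.16) beside an uncalled PSBO1 (742 to 899 against 783 to 1117). Copies within these families are alike in sequence, and their reads may have been shared in the counting. In starch and sucrose metabolism 9 of 25 were lower (36.0%) and 3 higher (12.0%). ADG2, the large subunit of the enzyme that commits glucose to starch, stood at 15.3, 14.2 and 27.1 CPM against 80, 69, 73.8 and 98 (log2FC -2.11 ± 0.22), the sucrose synthase SUS3 at 3.7 to 6.43 against 17.1 to 25.5 (log2FC -2.06 ± 0.22), and SS2, a starch synthase, was higher (log2FC 0.93 ± 0.12).

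Flavonoid genes were higher at the entry of the pathway and in its flavonol branch, while both tested enzymes that lead on to anthocyanins were lower. All 14 tested members were called, 11 higher (78.6%) and 3 lower, the third of the latter being the methyltransferase OMT1 (log2FC -0.95 ± 0.19). TT4, chalcone synthase at the entry of the pathway, stood at 1382, 2082 and 1367 CPM in YFP-POS against 439, 474, 340 and 451 (log2FC 1.89 ± 0.18, adjusted p = 1.1e-05), and FLS1, which makes flavonols, at 875, 1191 and 743 against 252, 238, 237 and 243 (log2FC 1.92 ± 0.16). TT5 and F3H, which act between them, rose by 2.2 ± 0.17 and 1.66 ± 0.14. DFR and LDOX, which lead from the same intermediates to anthocyanins, were lower, at 4.13, 5.28 and 10.9 against 26.7, 15.9, 14.4 and 24.9 CPM (log2FC -1.63 ± 0.33) and 5.49, 11.7 and 19.7 against 69.2, 48.1, 36.8 and 63.9 (log2FC -2.19 ± 0.35). The regulators MYB11, MYB12 and MYB111, known to switch on the flavonol branch, were higher, MYB11 at 45.9, 47.9 and 36.9 CPM against 7.49, 5.53, 4.59 and 6.07 (log2FC 2.85 ± 0.18). The groups did not overlap for any of these 9 genes. TTG1, a regulator of anthocyanin synthesis among other processes, was higher (log2FC 0.93 ± 0.12), as was UGT78D2, which adds glucose to flavonols and anthocyanidins (log2FC 1.22 ± 0.13). The summed level of the flavonoid list was 3196 to 4601 CPM in YFP-POS, 1157 to 1395 in YFP-NEG and 2907 to 4099 in NO-SORT. The epidermis markers were all higher in YFP-POS, as were 11 of the 14 flavonoid genes, and the part of epidermal cells in these levels was not tested.

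In the phenylpropanoid steps before and beside that pathway 4 of 15 were higher (26.7%) and 7 lower (46.7%). The higher share was close to the 24.4% of all genes tested. 4CL3, the ligase that feeds flavonoids, was at 166, 229.8 and 168 CPM against 45.6, 47, 39.1 and 53.7 (log2FC 1.99 ± 0.15) and PAL1 was higher by 0.86 ± 0.12. The ligases 4CL1 (log2FC -0.95 ± 0.24) and 4CL2 (log2FC -0.97 ± 0.22) were lower. Enzymes of lignin synthesis went both ways. CAD5 and CCOAOMT1 were lower, CAD5 at 24.6, 21.2 and 27.9 CPM against 79.3, 76.6, 80.7 and 71.6 (log2FC -1.67 ± 0.13), and CAD4 (log2FC 0.4 ± 0.13) and FAH1 (log2FC 0.79 ± 0.17) were higher. The call for CAD4 was lost with upper-quartile scaling, with library totals and without any 1 of YFP-NEG replicates 2 and 3 or YFP-POS replicates 1 and 2. Glucosinolate genes, which make sulphur-rich defence compounds, were lower in 7 of 12 tested cases and higher in none. MYB28, a regulator of the aliphatic branch, was at 0.272, 0.56 and 1.61 CPM against 2.97, 5.09, 7.04 and 8.07 (log2FC -2.85 ± 0.55) and MYB34, of the indolic branch, at 2.0 to 3.46 against 9.49 to 10.8 (log2FC -1.8 ± 0.25). SUR1 was called higher with the replicate block and without YFP-POS replicate 1. TGG1, a myrosinase that cleaves glucosinolates and marks guard cells and myrosin cells, was among the 15 largest decreases, at 48.4, 57.2 and 134 CPM against 930, 1325, 2016 and 1813 (log2FC -4.28 ± 0.40).

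Of 27 tested genes of wax, cutin and their control 13 (48.1%) were higher and 4 lower, or 7 lower without YFP-POS replicate 3 and with no filter on low counts. CER1, which makes wax alkanes, stood at 374, 580.5 and 569 CPM in YFP-POS against 58.9, 81.2, 86 and 85.6 (log2FC 2.68 ± 0.18, adjusted p = 1.4e-06). BDG1, an extracellular synthase of the cuticle, stood at 70.1, 109 and 80.4 against 7.1, 10.8, 10.8 and 12.1 CPM (log2FC 3.06 ± 0.19), DCR at 354 to 478 against 80.8 to 118 and FDH (FIDDLEHEAD), a fatty acid elongase that keeps organ surfaces from fusing, at 354, 499 and 507 against 114, 118, 121.8 and 124 (log2FC 1.9 ± 0.14). None of the 4 tested regulators rose, and WIN1 (3.86 to 8.64 against 10.8 to 20.4 CPM, log2FC -1.25 ± 0.29) and MYB16 were lower. Among the acyltransferases of cutin synthesis, GPAT6, which is prominent in petals, was lower (log2FC -0.85 ± 0.22) and GPAT4 higher (log2FC 1.89 ± 0.14). The summed level of the list was 2689 to 3880 CPM in YFP-POS, 1147 to 1539 in YFP-NEG and 2883 to 4873 in NO-SORT. For this list, too, the part of epidermal cells was not tested. The L1 box (TAAATGCA or TAAATGTA on either strand), to which homeodomain factors of the outer layer bind, was in the 250 bases before the start of 4.49% of all genes and 5.15% of those called higher, in 2 of 8 epidermis markers (FDH and HDG2) and in 2 of 28 cuticle genes (FDH and ABCG11, which was called higher with the replicate block but not without it, log2FC 0.48, adjusted p = 0.0101). The FDH sequence is shown because it belongs to both lists, at chr2:11173279-11173528 (reverse strand) of RefSeq TAIR10.1, 5′ to 3′ on the strand of the gene, with the box in capitals 54 to 47 bases before the start.
FDH: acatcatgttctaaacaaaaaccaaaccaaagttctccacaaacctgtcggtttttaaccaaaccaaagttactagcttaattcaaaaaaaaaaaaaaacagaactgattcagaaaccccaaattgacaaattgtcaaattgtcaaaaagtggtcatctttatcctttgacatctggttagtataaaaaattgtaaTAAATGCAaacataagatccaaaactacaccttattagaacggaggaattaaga

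**Figure D5:**
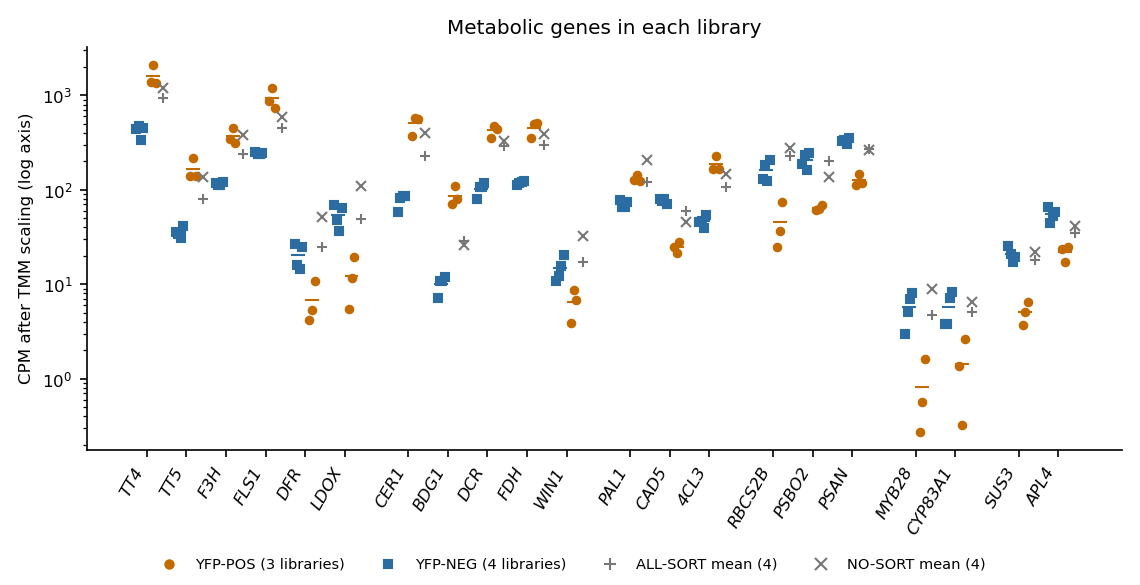
Levels of 21 metabolic genes in CPM after TMM scaling on a log axis (orange circles, YFP-POS libraries; blue squares, YFP-NEG libraries; bars, means; grey plus and cross, means of ALL-SORT and NO-SORT). From TT4 to FLS1 the YFP-POS libraries lie above YFP-NEG and at DFR and LDOX below; CER1, BDG1, DCR and FDH lie above and WIN1, CAD5, the photosynthesis genes, MYB28, CYP83A1, SUS3 and APL4 below.

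Cell wall genes were near the background in the share called higher, 6 of 23 tested (26.1%), and below it in the share called lower, 3 (13.0%). The lower count was 1 without YFP-NEG replicate 3, YFP-NEG replicate 4 or YFP-POS replicate 2. The expansins EXPA15 (304, 341 and 292 against 160, 152, 127 and 118 CPM, log2FC 1.14 ± 0.14), EXPA3 and EXPA6 were higher. CSI1, which ties cellulose synthase to microtubules, was higher by 0.77 ± 0.15, while CESA3, a catalytic subunit of primary wall cellulose synthesis, was not called (264 to 376 against 204 to 289 CPM). The lower members were EXPA1, EXPA11 and CESA8, a subunit for secondary walls that reached 5.72 CPM at most. EXPA1 was not called without any 1 of YFP-NEG replicates 2, 3 and 4 or YFP-POS replicates 1 and 2, and CESA8 not without YFP-NEG replicate 3 or 4 or YFP-POS replicate 2.

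Outside the lists, the 5 largest changes in each direction aside, the next 10 increases among genes at an adjusted p under 0.001 with at least 10 CPM and groups that did not overlap included 4 further regulators of known function. The transcription factor DOF4.7, which represses floral organ abscission, stood at 32.8, 52.1 and 32.6 CPM against 0.581, 1.18, 0.566 and 1.19 (log2FC 5.46 ± 0.28), and OFP4, an OVATE family protein that binds KNOX and BELL factors, at 10 to 13.3 against 0.189 to 0.592. STY1, an activator of YUCCA genes that shapes the style, stood at 90.7 to 165 CPM against 4.47 to 5.82 (log2FC 4.63 ± 0.21), and SHP1, the close relative of SHP2, at 80.8 to 124 against 1.42 to 5.85. PRN (PIRIN1) stood at 86.6 to 124 against 1.61 to 7.63 CPM (log2FC 4.69 ± 0.35). Of the corresponding decreases, SWEET8, a sugar transporter of the tapetum, was at 1.36, 0 and 0.185 CPM against 20.15, 15.8, 12.3 and 15.9 (log2FC -4.81 ± 0.58). FUM2, the cytosolic fumarase, was at 0.163, 0.72 and 1.18 against 11.9, 16, 13.3 and 18.1 CPM (log2FC -4.48 ± 0.42), and ABCB15, an ABC transporter (log2FC -4.91 ± 0.56), and AGAL2, an alpha-galactosidase (log2FC -4.08 ± 0.28), were lower. The rest of the 20 were WAG2 and TGG1, described above, and 9 loci without a symbol in the annotation.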

How the data were processed

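Raw read counts per locus were deposited by the authors as whole numbers, in 1 table for the YFP-POS and YFP-NEG libraries and 1 for the ALL-SORT and NO-SORT libraries, with the 2 lanes of a library in 1 column. Per the labels, libraries were strand-specific and read for 125 cycles from 1 end. Per the submitters' processing notes, TopHat2 2.0.10, HTSeq, edgeR, DESeq2, Cufflinks 2.2.1, FastQC and TAIR10 were used, with no role given. How lanes were joined and whether strand was used are not given in the sources used here. Every row names a locus. Of 33602 loci, 32835 were matched to RefSeq TAIR10.1, which is used for names, overlaps and upstream sequences.

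From these counts the 7 YFP libraries were fitted with edgeR 4.0.16 in R 4.3.3 (trimmed mean of M values (TMM) scaling, its default filter on low counts, quasi-likelihood F test). P-values were adjusted by the Benjamini-Hochberg method over all 18830 genes tested, and called at 0.05. All adjusted p-values printed come from this fit unless another is named. The SE of a log2 fold change was taken from F, as its size over the root of F. Levels are CPM after TMM scaling over all 15 libraries. The total counts per library set the precision. The scripts were tested on simulated data with 200 changed genes, far fewer than the 9184 called here. That test therefore cannot show how scaling and error rates hold at such a share of changed genes. PCR duplicates cannot be told from independent molecules.

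Replicate numbers pair the libraries: deviations from the group means correlated at r = 0.371, 0.273 and 0.310 between libraries of the same number, and between -0.26 and 0.061 otherwise, as computed from log2 CPM across genes. The fit without the block is the main one, so its SE and p-values leave this pairing out. A fit with the number as block is an alternative. Others were relative log expression, upper-quartile and library-total scaling, no filter, 1 CPM in 3 libraries, DESeq2 1.42.0, limma 3.58.1 with voom, an adjusted p under 0.01 and each library left out.

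Lists and members were chosen with earlier results of these data known, and 721 of 724 entries matched a locus. From each list the text draws on up to 4 called members with the largest change and at least 5 CPM in the higher group, up to 2 called members of the opposite direction and up to 2 uncalled members of highest level. Beyond the lists it names ranks 6 to 15 in each direction among genes at an adjusted p under 0.001 with groups apart and at least 10 CPM. Genes named outside this rule were chosen after their values were seen: 4CL1, 4CL2, ABCB19, AFB1, AFB2, AFB5, AHP3, AIL6, AIL7, AOS, ARF19, ARF8, ARR15, ARR4, ARR6, ARR7, ARR8, ARR9, ATML1, AUX1, BRI1, BZR1, CAD4, CESA8, CKX3, CRN, CUC1, CUC3, CYCD3;1, CYCD3;3, DEL1, E2F1, ETT, EXPA11, F3H, FAH1, GA20OX2, GA3OX3, GAI, GH3.17, GH3.3, GH3.6, GID1A, GPAT4, GPAT6, GRF4, GRF5, GRF8, HDG2, HIK, JAZ10, KAO1, KNU, KRP2, LAX2, LOG8, LOX4, MYB111, MYB12, NCED2, OMT1, OPR3, PID, PIN3, PIN7, PIN8, RBR1, RNR2A, RPS6B, TAR2, TIR1, TSO2, TT4, TTG1, UGT78D2, WOL and WUS.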

Additional observations from a re-analysis of the deposited data

Results flagged for a closer look

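In YFP-NEG, the group with 4 libraries, 1 library lay far from the other 3 by Dixon's test for 11 of 225 genes examined, about the 5% that chance gives. In YFP-NEG replicate 4, LAP5 stood at 12.22 CPM (others 1.99 to 3.487), IAA32 at 2.073 (0.8846 to 1.033), ENODL20 at 51.98 (18.92 to 20.07), AT1G73890 at 47.17 (16.48 to 19.68) and AT1G44970 at 147.1 (43.53 to 60.82). In YFP-NEG replicate 3, PIN5 stood at 22.83 CPM (4.972 to 6.96) and TFL1 at 63.15 (23.05 to 27.4). In YFP-NEG replicate 2, CUC2 stood at 12.75 CPM (7.775 to 8.523) and CSI1 at 141.4 (107.5 to 110.7). In YFP-NEG replicate 1, PI stood at 230.9 CPM (188 to 195.2) and TCP17 at 6.973 (4.78 to 5.035). All of these genes kept their call without the library concerned, and for CUC2, CSI1 and IAA32 the high library lay on the side of YFP-POS.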

How the results depend on the processing

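The count of called genes was 7910 to 9138 and that of strict genes 510 to 882 with 1 library left out, and no count over all genes moved by over 1.5 times under any setting listed. The median log2 fold change, -0.015, became -0.107 under upper-quartile scaling and -0.095 when libraries were scaled by their totals, and these gave 3853 higher against 5363 lower genes and 3914 against 5136. With the replicate block (paired by number) 9521 genes were called, 4624 higher and 4897 lower. Of 655 list members tested, 37 gained a call with the block, 11 lost it and none turned. Among the genes of the naming rule the block added SUC2 (-1.74), HSP70 (-0.77), HAB1 (-0.39), LSH4 (-0.67) and LACS1 (0.51) to those named in the report, and changed no other call. At an adjusted p under 0.01 the counts fell to 2 lower stomatal markers, 1 lower auxin transport gene, 7 lower auxin response genes, 3 higher polarity genes, 4 lower G1 regulators, 5 lower starch and sucrose genes, 3 lower glucosinolate genes and no lower cell wall gene. With 1 library left out the sign of 4 uncalled genes changed: WUS ranged from -0.0308 (without YFP-POS replicate 3) to 0.5564, and, with the odd value without YFP-POS replicate 1, KN from -0.1031 to 0.3397, MCM6 from -0.0097 to 0.4043 and MYC2 from -0.2619 to 0.0308. The cause of these shifts was not tested. Genes at a few CPM or less, such as KNU, ARR6 and PIN8, rest on few counts, and a difference that was not called may be undetectable at this depth.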

Other observations

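ALL-SORT libraries, sorted without regard to YFP, are in no comparison above. For genes called at 2-fold or more and with at least 5 CPM in the higher group, the ALL-SORT mean was placed between the YFP-NEG mean (0%) and the YFP-POS mean (100%). The median place was 44.3% over 1174 higher genes and 35.3% over 1719 lower ones, of which 231 lay below 0%, outside the span of the YFP groups. Without ALL-SORT replicate 4, whose handling genes were lower and epidermis markers higher than in the other 3, an alternative chosen after seeing the data, the medians were 38.6% and 29.7%. SHP2, HEC1 and CRC stood lower, at 18.0%, 12.4% and 20.5%. TAA1 and YUC4 had a median of 17.6%, 3 higher cytokinin genes 9.83% and 10 lower KNOX and BELL genes 14.9%, or 20.8%, 15.1% and 22.3% without replicate 4. Epidermis markers (7 genes) stood at 52.9% and cuticle genes (8) at 55.2%, which became 32.5% and 32.3% without replicate 4. For 9 lower jasmonate genes the median was 52.1%, and 27.3% without it. The 8 photosynthesis genes that were lower by 2-fold stood at -44.8% (-34.0% without it), with 5 of them below 0%, so their levels in ALL-SORT were mostly above those in either YFP group. The tables were deposited separately, and the reasons for these places were not tested.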
